A study of Mus musculus with 6 samples.

Results

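Interstitial fibroblasts with no transcript of 6 adventitial genes were picked out of the obstructed mouse kidney from their own unique molecular identifier (UMI) counts, 174 cells among 25978 deposited barcodes. A barcode was a member if it had at least 200 genes, at most 50% mitochondrial UMIs and at least 10 UMIs over Col1a1, Col1a2, Col3a1 and Dcn. It also had at most 2 UMIs over the mural genes Rgs5, Myh11 and Notch3, at most 5 over the macrophage genes C1qa, C1qb and C1qc, and 0 over the adventitial genes Dpt, Mfap5, Clec3b, Pi16, Scara5 and Cilp. The 6 C57BL/6 mice all had unilateral ureteral obstruction, in which a tied ureter leads to fibrosis of the kidney, and the obstructed kidneys were taken after 7 days from 3 mice given SH045 and 3 mice given Vehicle. SH045 inhibits the cation channel TRPC6, and the study asked how that inhibition acts on fibrosis. The labels name no genetic change in either group, and the dose, age and sex are not given in the sources used here. Contralateral kidneys were not analysed here. Each mouse gave 1 droplet library of dissociated kidney, with 21186872 to 32256602 UMIs per library.

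Fibroblasts of the kidney interstitium lie between tubules and capillaries, and after obstruction they lay down collagen and other matrix and can take on the smooth-muscle actin of a myofibroblast. Another fibroblast population sits in the adventitia, the sleeve around larger vessels, and is usually told apart by genes such as Pi16 and Dpt. Both carry the platelet-derived growth factor receptors Pdgfra and Pdgfrb, through which they are driven to divide and to make matrix.

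The 3 SH045 kidneys gave 51, 26 and 51 members, against 14, 16 and 16 from the 3 Vehicle kidneys. Barcodes that passed the other gates but held an adventitial UMI, here called adventitial-positive fibroblasts, numbered 63, 107 and 34 with SH045 and 10, 17 and 8 with Vehicle. Members close to the collagen limit, with 10 to 14 such UMIs, were 6 with SH045 and 4 with Vehicle, and 4 SH045 and 7 Vehicle barcodes failed it with 5 to 9. Of the adventitial-positive fibroblasts, 46 with SH045 and 12 with Vehicle held exactly 1 adventitial UMI, so that many lie next to the border of the rule. The median member had 4498, 4501.5 and 6402 UMIs with SH045, against 6455, 7859.5 and 5515 with Vehicle. The libraries shared 209 barcodes, and the barcode of 3 members occurred in another library.

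Most members carried the markers of a fibroblast. Pdgfra had a UMI in 109 of 174 members (62.6%), against 0.273% of 9507 macrophages rich in C1q, which give the level of free RNA in the droplets, and 83.9% of members held Pdgfra or Pdgfrb. Set against all other kept barcodes, the genes that led the members were Tcf21, a transcription factor of stromal cells, at a mean of 385 CPM (UMIs of the gene scaled to a fixed library total) in members and 6.01 CPM elsewhere, Colec12, a scavenger receptor, at 623 and 9.73 CPM, and Frzb, a secreted Wnt antagonist, at 254 and 4.91 CPM. The collagen VI chain Col6a3 stood at 1356 and 28.5 CPM and Pdgfra at 259 and 5.95 CPM. All 5 were higher in members in 6 of 6 libraries, which is a description, since the members were chosen from the same cells. Adventitial-positive fibroblasts stood near the members, at 291 CPM for Tcf21, 492 for Colec12, 259 for Frzb, 1404 for Col6a3 and 288 for Pdgfra. These genes are thus not particular to the members among fibroblasts. Postn, the matricellular protein periostin and a marker of activated fibroblasts, had a UMI in only 25 members (14.4%), against 0.0947% of the C1q-rich macrophages.

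A small group of members did not look like fibroblasts. In 16 of the 174, more than 2 UMIs came from the epithelial genes Epcam, Cdh16, Cdh1, Krt8 and Krt18; 5, 0 and 3 of them came from SH045 mice, 3, 5 and 0 from Vehicle mice. They had a median of 14692 UMIs, against 4918 in the other 158 members, and a median collagen and Dcn share of 0.130% of their UMIs, against 1.73%. Only 1 of the 16 held a Pdgfra or Pdgfrb UMI (6.25%), against 145 of the 158 (91.8%), and Col1a1 was seen in 2 of 16 and in 157 of 158. They supplied 26.2%, 0% and 12.6% of the summed member UMIs with SH045 and 38.8%, 48.6% and 0% with Vehicle. The intercalated cell gene Atp6v1g3 shows what they brought: 1704, 7.43 and 1024 CPM with SH045 and 2698, 4641 and 8.92 CPM with Vehicle over all members, but 78.5 CPM or less in each library without the 16. Results below are therefore given for all 174 members and, where it matters, for the 158, a choice made after seeing the data.

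**Figure D1:**
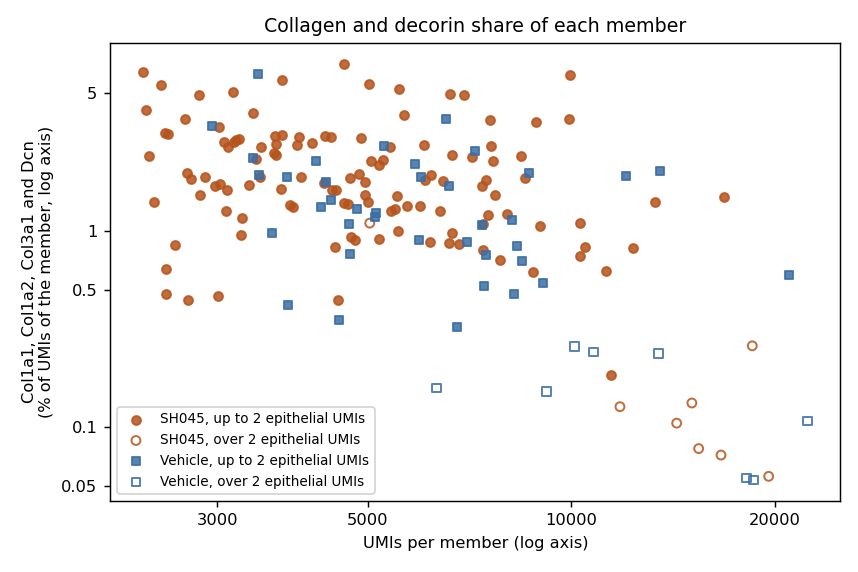
Each point is 1 member, placed by its total UMIs (horizontal, log scale) and by the percentage of its UMIs from Col1a1, Col1a2, Col3a1 and Dcn (vertical, log scale); circles are SH045, squares are Vehicle, and open symbols hold over 2 epithelial UMIs. The 16 open symbols lie mostly at the lower right, with a median collagen share of 0.130% against 1.73% in the other 158.

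Markers of other cell types, and adventitial genes outside the rule, were checked in the summed members. The 14 such adventitial genes, led by Gsn, Sfrp1 and Fbn1, summed to 2157, 2755 and 2056 CPM with SH045 and 1526, 1554 and 1614 CPM with Vehicle. Without the 16 members they summed to 2255 to 2755 CPM and 1614 to 2535 CPM. In adventitial-positive fibroblasts they summed to 4473, 10763 and 2854 CPM with SH045 and 2569, 2839 and 3455 CPM with Vehicle. The 20 other-tubule markers summed to 4397, 2867 and 4236 CPM with SH045 and 10005, 8449 and 1961 CPM with Vehicle, and without the 16 members to 1884 to 3169 CPM with SH045 and 1961 to 3994 CPM with Vehicle. That list includes Epcam, Cdh16, Cdh1, Krt8 and Krt18, which set the 16 members apart, so part of its fall without them was fixed in advance. The 18 macrophage and monocyte markers summed to 1002, 2020.1 and 3440 CPM with SH045 and 1763, 1099 and 10101 CPM with Vehicle, with replicate 3 of Vehicle far above the rest. The 12 endothelial markers summed to 362, 438 and 477 CPM with SH045 and 256, 140.0 and 374 CPM with Vehicle, with 4 of the 12 (Cdh5, Tie1, Esam and Cldn5) at 0 in every library. The 10 fat cell markers summed to 83.2, 446 and 97.8 CPM with SH045 and 29.5, 112 and 44.6 CPM with Vehicle, with 6 of the 10 (Adipoq, Plin1, Cfd, Cidec, Retn and Plin4) at 0. Without the 16 members the endothelial markers summed to 438 to 546 CPM with SH045 and 273 to 418 CPM with Vehicle, and the fat cell markers to 58.9 to 446 CPM and 13.6 to 44.6 CPM, neither with overlap. Except where values with and without the 16 members are set side by side, the part of these transcripts in the differences below was not tested.

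Members made up a larger share of the kept barcodes with SH045. They were 1.49%, 0.652% and 1.41% of kept barcodes after SH045, against 0.338%, 0.375% and 0.387% after Vehicle, with 95% Clopper-Pearson intervals of 1.11 to 1.96%, 0.427 to 0.955% and 1.05 to 1.85% for SH045 and 0.185 to 0.566%, 0.215 to 0.609% and 0.221 to 0.627% for Vehicle. Every SH045 library lay above every Vehicle library. The mean was 1.18 ± 0.462% with SH045 and 0.367 ± 0.0256% with Vehicle (SD, n = 3 each), a ratio of 3.23, with an exact two-sided permutation p of 0.1, the smallest that 3 mice against 3 can give. Intervals cover counting error only. Without the 16 epithelial members the shares were 1.11 ± 0.394% and 0.303 ± 0.0723%, a ratio of 3.65. Without members holding over 5 UMIs of markers of other cell types, an alternative chosen for the shares after seeing the data, they were 0.352 ± 0.137% and 0.0481 ± 0.0245%, a ratio of 7.31, from 16, 8 and 14 members with SH045 and 2, 1 and 3 with Vehicle.

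The share of a dissociated sample is not a count of cells in the kidney, and it moved together with other features of the libraries. Barcodes above the mitochondrial limit were 12.4 ± 3.56% of all barcodes with SH045 and 4.34 ± 0.873% with Vehicle. Adventitial-positive fibroblasts were 1.82 ± 0.874% of kept barcodes with SH045 and 0.278 ± 0.107% with Vehicle, a ratio of 6.56, again with no overlap. Within all gated fibroblasts, members were 41.4 ± 20.4% with SH045 and 57.8 ± 9.10% with Vehicle, values that overlapped (exact permutation p = 0.3). Fibroblasts with no UMI of the adventitial genes of the rule were thus a larger share of the SH045 libraries, but no difference in their part of the fibroblasts was detectable with 3 mice a group. The part of the barcodes rich in mitochondrial UMIs in these shares was not tested.

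**Figure D2:**
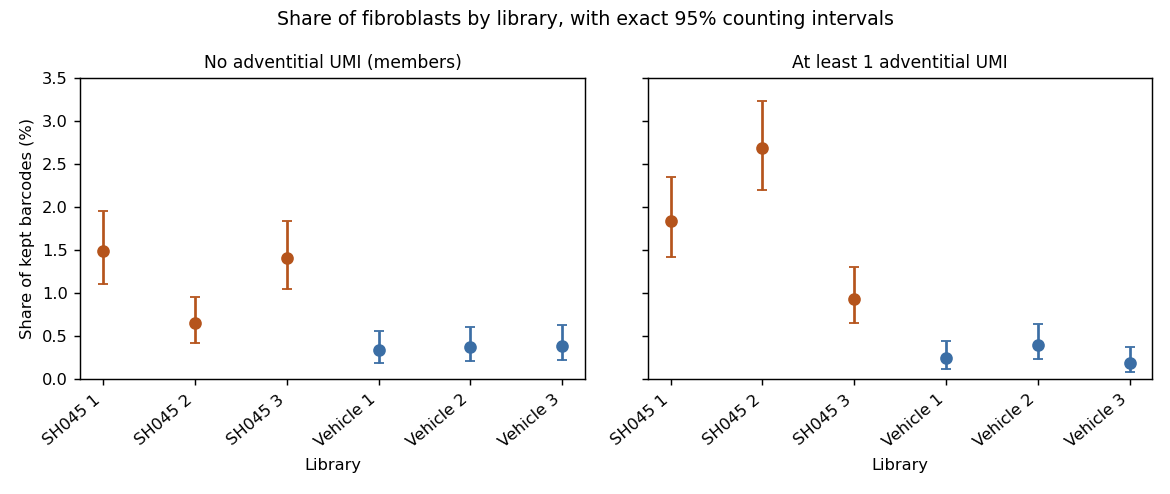
Shares of kept barcodes (percent, vertical) in each library, with SH045 left of Vehicle, for members and for adventitial-positive fibroblasts. Points are libraries with 95% Clopper-Pearson intervals; members stand at 0.652 to 1.49% with SH045 and 0.338 to 0.387% with Vehicle.

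Gene expression in members was compared on UMIs summed per library. The 16 genes named in the rule carry no test. Transcripts of the mitochondrial genome enter the mitochondrial limit of the rule but were not held back from the tests. Calls on them are thus not independent of the choice of members. Col1a1, the main chain of type I collagen, had 4418, 5971 and 4973 CPM with SH045 and 2373, 1680 and 2987 CPM with Vehicle, and the groups did not overlap. Col1a2, its partner chain, had 6079, 6016 and 5738 CPM with SH045 and 1822, 1918 and 3869 CPM with Vehicle. Col3a1, the chain of type III collagen, overlapped at 5149, 5956 and 4550 CPM with SH045 and 3181, 2674 and 5545 CPM with Vehicle, and so did the proteoglycan Dcn at 2001, 2235 and 1421 CPM with SH045 and 1822, 1498 and 1899 CPM with Vehicle. In the 158 members without epithelial transcripts the 4 genes together took 2.32%, 2.02% and 1.90% of UMIs with SH045 and 1.41%, 1.39% and 1.43% with Vehicle.

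Gas6 was the 1 gene called over all members, and it rose with SH045. It encodes a secreted ligand of the TAM receptors Axl, Tyro3 and Mertk, lies on chromosome 8 at 13465374 to 13494490 (mm10, minus strand), and had 253, 223 and 233 CPM with SH045 (70, 30 and 81 UMIs) and 49.2, 49.0 and 26.7 CPM with Vehicle (5, 7 and 3 UMIs). The SH045 libraries lay close together and well above all Vehicle libraries. The log2 fold change was 2.44 ± 0.35 (SE; edgeR quasi-likelihood test, Benjamini-Hochberg adjusted p = 0.0367). Of the 2669 genes tested outside the 16 genes named in the rule, 0.0375% were called. The call rests on 15 Vehicle UMIs, and without any 1 of SH045 replicate 2, SH045 replicate 3, Vehicle replicate 1 or Vehicle replicate 2 the edgeR adjusted p was 0.263, 0.217, 0.341 or 0.146, while the log2 fold change stayed at 2.48 to 2.64.

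Below that threshold, 336 genes (12.6%) had an unadjusted edgeR p under 0.05, 205 higher (7.68%) and 131 lower (4.91%) with SH045, and DESeq2 called 2 genes. No gene was called lower. The libraries did not overlap between groups for 319 genes that were higher with SH045 (12%) and for 183 that were lower (6.86%), and 45.3% of genes had a log2 fold change above 0. Long transcripts tended to stand higher with SH045: Spearman's rho of fold change with transcript length was 0.44 across genes, which are not independent replicates, and the median log2 fold change was -0.32 in the shortest 10% of transcripts and 0.45 in the longest 10%. Vehicle replicate 3 weighed most on the count: without it, 87 genes were called, 54 higher and 33 lower.

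Without the 16 epithelial members, 14 of 2395 genes were called (0.585%), 13 higher (0.543%) and 1 lower (0.0418%) with SH045. The adjustment ran over 2399 genes, since rule genes that passed the filter stayed in it. Col1a1 and Col1a2 were among the smallest p-values there, which can lower the adjusted p of other genes. All calls but Col6a2, Gas6 and mt-Rnr1 had an edgeR adjusted p of 0.0464 to 0.0495. Whether those calls hold with the rule genes left out of the adjustment was not tested. The genes that rose were the matrix genes Col6a2, Col6a1, Col14a1, Emilin1 and Ogn, the signalling genes Gas6, Il6st and Gucy1a1, the actin-associated gene Lpp, the transcription factor Nfia, the deubiquitinase gene Usp34, and mt-Rnr1 and mt-Nd2 of the mitochondrial genome. Both mt-Rnr1 and mt-Nd2 are among the 13 but also count towards the mitochondrial limit of the rule. Their calls are therefore not independent of the choice of members. Capg, an actin filament capping protein, fell: it had 235, 178 and 165 CPM with SH045 and 531, 572 and 348 CPM with Vehicle over the 158 members, a log2 fold change of -1.27 ± 0.29 (edgeR adjusted p = 0.0495). Here 10.1% of genes were higher and 8.77% lower with no overlap, and 47.2% had a log2 fold change above 0. The correction for transcript length was run over all members alone, so the part of the length trend in these calls was not tested.

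**Figure D3:**
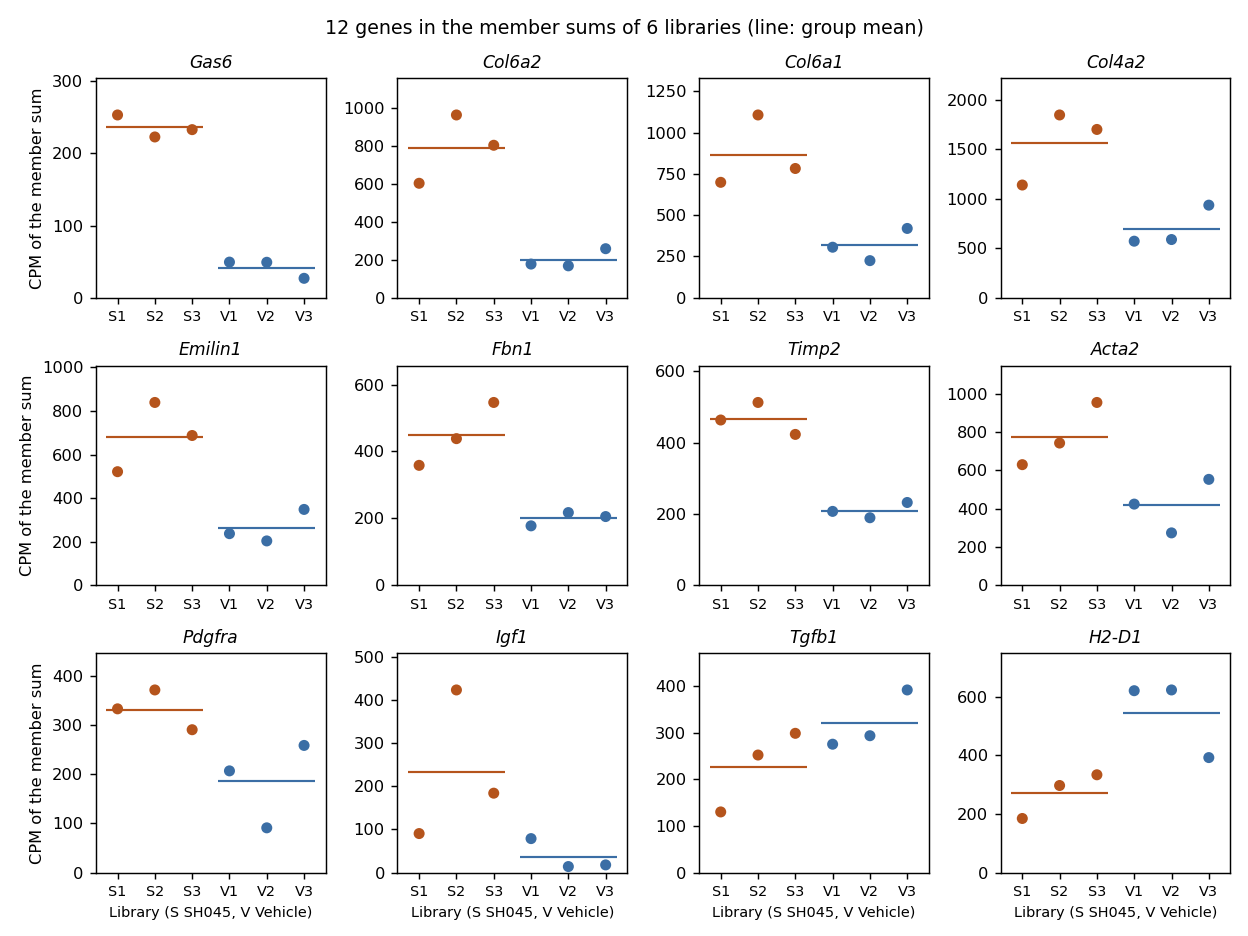
CPM per library (vertical, linear scale) of 12 genes in summed members, with SH045 libraries left of Vehicle libraries; points are libraries and lines are group means. Gas6 had 223 to 253 CPM with SH045 and 26.7 to 49.2 CPM with Vehicle, the groups of Tgfb1 overlapped, and those of H2-D1 lay apart with SH045 lower.

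Collagen VI forms beaded filaments around cells, next to the basement membrane built of collagen IV, laminin and nidogen. All 14 genes of that group that passed the low-count filter, of 18 listed, had a positive fold change with SH045, with a median log2 fold change of 1.09 against -0.06 over all genes, and 10 of the 14 did not overlap (12% over all genes). Over all members edgeR called none of the 14, 11 of which had an unadjusted p under 0.05, and DESeq2 called 1 of them, Col6a2. Col6a2 had 604, 965 and 805 CPM with SH045 and 177, 168 and 259 CPM with Vehicle, a log2 fold change of 1.94 ± 0.31 (edgeR adjusted p = 0.0518); DESeq2 gave 1.93 ± 0.39 (adjusted p = 0.00203). Over the 158 members without epithelial transcripts Col6a2 rose, with 814, 965 and 922 CPM with SH045 and 290, 327 and 259 CPM with Vehicle (1.66 ± 0.25, edgeR adjusted p = 0.00547). The SH045 libraries then stood at or above 814 CPM and no Vehicle library reached 330.

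Its partner Col6a1 also rose over the 158 members, with 947, 1107 and 895 CPM with SH045 and 499, 436 and 419 CPM with Vehicle (1.15 ± 0.23, edgeR adjusted p = 0.0464). The third chain, Col6a3, overlapped at 1867, 1299.7 and 2203 CPM with SH045 and 748, 441 and 1578 CPM with Vehicle over all members (0.94 ± 0.41, edgeR adjusted p = 0.362). The collagen IV chains did not overlap over all members: Col4a1 had 1559.7, 1730.4 and 2240.4 CPM with SH045 and 739, 868 and 1088 CPM with Vehicle, and Col4a2 had 1139.9, 1849 and 1703 CPM with SH045 and 571, 588 and 936 CPM with Vehicle. Neither was called, with log2 fold changes of 1.00 ± 0.28 and 1.13 ± 0.30 (edgeR adjusted p = 0.187 for both). The group had 14 positive fold changes and 10 without overlap over the 158 members (10.1% over all genes), with a median of 0.92 and 2 genes called (0.543% over all genes). With the length trend removed, the median over all members was 0.66.

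Fibrillar collagens and their regulators moved less evenly. Of 23 listed, 4 belonged to the rule and 15 of the others passed the filter; 13 were positive and 2 negative, 7 did not overlap on the higher side (12% over all genes), and the median log2 fold change was 0.86 over all members and 0.58 over the 158. The median over all members was 0.41 with the length trend removed. Col14a1, which binds to collagen fibrils and is also used as an adventitial gene, had 101, 304 and 302 CPM with SH045 and 59.1, 28.0 and 44.6 CPM with Vehicle (2.40 ± 0.50, edgeR adjusted p = 0.115). It rose over the 158 members by 2.11 ± 0.45 (edgeR adjusted p = 0.0495). Emilin1, an elastic fibre glycoprotein, had 521, 839 and 687 CPM with SH045 and 236, 203 and 348 CPM with Vehicle, and rose over the 158 members by 1.07 ± 0.24 (edgeR adjusted p = 0.0495). Fbn1, the microfibril protein fibrillin-1, and Col5a1 of the minor fibrillar collagen V did not overlap but were not called, with log2 fold changes of 1.12 ± 0.29 and 0.89 ± 0.31 (edgeR adjusted p = 0.187 and 0.302).

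Of the proteoglycans, 8 of 17 listed passed the filter, 6 positive and 2 negative, with a median of 0.49 over all members and 0.33 over the 158. Ogn, which encodes osteoglycin, had 159, 356 and 138 CPM with SH045 and 29.5, 0 and 71.3 CPM with Vehicle, and rose over the 158 members by 2.43 ± 0.55 (edgeR adjusted p = 0.0495). Lumican, from Lum, depended on 1 Vehicle library, with 170, 111 and 66.1 CPM with SH045 and 0, 0 and 250 CPM with Vehicle (0.48 ± 1.39, edgeR adjusted p = 0.906). Biglycan, from Bgn, did not overlap over all members but did over the 158, with log2 fold changes of 0.49 ± 0.26 and 0.19 ± 0.20.

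Matricellular proteins, which sit in matrix and act on cells, gave 10 of 18 genes past the filter, 8 positive and 2 negative, with a median of 0.60 over all members and 0.31 over the 158. Sparc had 5262, 8281 and 6946 CPM with SH045 and 4412, 3962 and 5179.8 CPM with Vehicle, without overlap over all members but overlapping over the 158. Fibronectin, from Fn1, had 778, 750 and 797 CPM with SH045 and 266, 532 and 749 CPM with Vehicle, so that the groups all but touched. Ctgf, the connective tissue growth factor that TGF-beta induces, overlapped at 333, 208 and 572 CPM with SH045 and 226, 77.0 and 348 CPM with Vehicle (0.80 ± 0.52, edgeR adjusted p = 0.53).

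Collagen processing and cross-linking genes were 19 of 26 past the filter, 13 positive and 6 negative, with a median of 0.34 over all members and 0.18 over the 158. The lysyl oxidases that cross-link collagen differed: Loxl2 had 550, 683 and 601 CPM with SH045 and 404, 203 and 259 CPM with Vehicle without overlap, and Lox overlapped, with log2 fold changes of 1.06 ± 0.30 and 0.49 ± 0.29 (edgeR adjusted p = 0.187 and 0.47). Proteases and their inhibitors were 12 positive and 1 negative of 13 past the filter, with a median of 0.44, and over the 158 members 11 positive and 5 negative of 16, with a median of 0.29. Timp2, a metalloproteinase inhibitor, did not overlap at 463, 512 and 423 CPM with SH045 and 207, 189 and 232 CPM with Vehicle (1.12 ± 0.27, edgeR adjusted p = 0.169). Its relative Timp1 was the 1 negative gene, at 217, 446 and 535 CPM with SH045 and 591, 1049.9 and 330 CPM with Vehicle, and overlapped. Gelatinase A, from Mmp2, had 232, 423 and 247 CPM with SH045 and 207, 105 and 205 CPM with Vehicle, and overlapped over the 158 members.

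**Figure D4:**
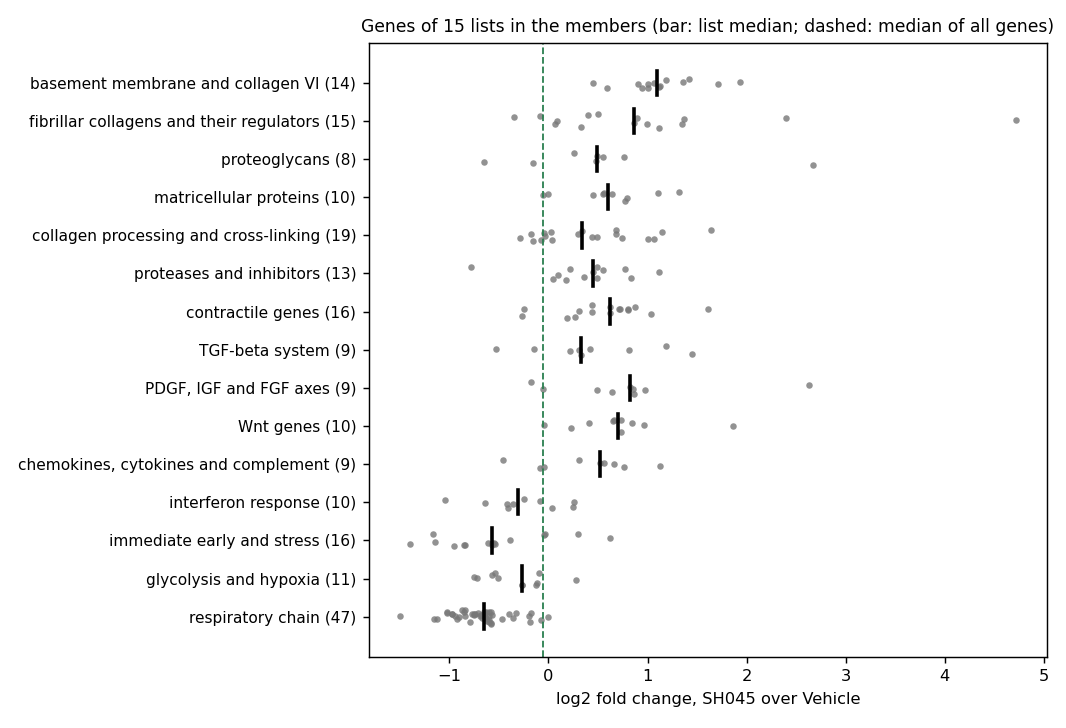
Log2 fold changes of SH045 over Vehicle in summed members (horizontal) for the tested genes of each gene list (points), with the list's median as a bar and the median of all genes as a dashed line; numbers in brackets are genes tested. Basement membrane and collagen VI genes lie to the right with a median of 1.09, and all 47 respiratory chain genes lie left of 0 with a median of -0.65.

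Contractile genes are those of the myofibroblast. Of 16 past the filter, 14 were positive and 2 negative, and 8 did not overlap on the higher side (12% over all genes). Over the 158 members 12 were positive and 4 negative and 4 did not overlap on that side (10.1% over all genes). The median was 0.62 over all members and 0.41 over the 158, and none was called. Acta2, smooth-muscle actin, had 630, 743 and 955 CPM with SH045 and 423, 273 and 553 CPM with Vehicle (0.88 ± 0.31, edgeR adjusted p = 0.307). Every SH045 library was above every Vehicle library, and this was so over the 158 members as well. Tagln, transgelin, overlapped at 293, 460 and 739 CPM with SH045 and 315, 378 and 517 CPM with Vehicle, and its log2 fold change of 0.27 ± 0.36 was -0.01 over the 158. Vcl, vinculin, which ties actin to cell adhesions, had 156, 223 and 210 CPM with SH045 and 59.1, 63.0 and 62.4 CPM with Vehicle without overlap (1.61 ± 0.34, edgeR adjusted p = 0.115).

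Shares of members with a UMI were compared after each cell was thinned to 2000 UMIs, which left out no member. Pdgfra was seen in 54.9%, 42.3% and 33.3% of members with SH045 and in 28.6%, 25.0% and 25.0% with Vehicle, against 0.191% and 0.170% of C1q-rich macrophages. The means were 43.5 ± 10.8% and 26.2 ± 2.06% with no overlap (exact permutation p = 0.1, 0.4 after adjustment over 4 genes). Unthinned, the pooled shares were 66.4% and 52.2%, and without the 16 epithelial members the thinned means were 45.5 ± 12% and 32.6 ± 6.56% and overlapped (exact p = 0.3). Acta2 was seen in 44.8 ± 5.36% of members with SH045 and 39.0 ± 9.79% with Vehicle (exact p = 0.4), against 1.57% and 1.36% of C1q-rich macrophages, but without the 16 epithelial members in 47.4 ± 6.11% with SH045 and 49.8 ± 21.1% with Vehicle, so that the order turned (exact p = 0.9). Postn was seen in 7.16 ± 3.04% of members with SH045 and 6.55 ± 6.27% with Vehicle (exact p = 0.9), against 0.119% and 0.0377% of C1q-rich macrophages. That order turned as well with each cell thinned to 1000 UMIs, at 3.24 ± 1.11% with SH045 and 10.7 ± 6.97% with Vehicle without overlap (exact p = 0.1), and unthinned, at 13.6 ± 3.31% and 17.3 ± 2.58% (exact p = 0.3).

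Postn itself was too sparse to be tested, with 5, 7 and 12 UMIs with SH045 and 10, 6 and 5 UMIs with Vehicle, that is 18.1, 52.0 and 34.5 CPM and 98.5, 42.0 and 44.6 CPM. Among the other fibroblast markers, Pdgfra in sums did not overlap at 333, 371 and 290 CPM with SH045 and 207, 91.0 and 259 CPM with Vehicle (0.83 ± 0.35, edgeR adjusted p = 0.348), and overlapped over the 158 members. Pdgfrb overlapped at 271, 208 and 348 CPM with SH045 and 138, 147 and 241 CPM with Vehicle. Fap, a surface protease of activated fibroblasts, had 86.8, 59.4 and 54.6 CPM with SH045 and 78.8, 35.0 and 223 CPM with Vehicle (-0.72 ± 0.55, edgeR adjusted p = 0.589), and without Vehicle replicate 3 its log2 fold change was 0.28.

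TGF-beta is the classic signal for matrix production, and PDGF, IGF and Wnt ligands act beside it. The ligand gene Tgfb1 did not follow the matrix genes: it had 130, 253 and 299 CPM with SH045 and 276, 294 and 392 CPM with Vehicle (-0.53 ± 0.34, edgeR adjusted p = 0.514). Over the 158 members it stood at 172, 253 and 342 CPM with SH045 and 451, 545 and 392 CPM with Vehicle, with no overlap but no call (-0.80 ± 0.30, edgeR adjusted p = 0.237). After thinning it was seen in 29.3 ± 15.4% of members with SH045 and 45.8 ± 7.22% with Vehicle (exact p = 0.2), against 28.0% and 28.3% of C1q-rich macrophages, which themselves express the gene. The receptor Tgfbr2 overlapped (0.42 ± 0.32), and of the 9 genes of the TGF-beta system past the filter 7 were positive and 2 negative, with a median of 0.32 over all members and 0.13 over the 158. The median over all members was 0.14 with the length trend removed.

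Il6st, the gp130 receptor chain shared by the interleukin-6 family, had 232, 416 and 319 CPM with SH045 and 118, 70.0 and 80.2 CPM with Vehicle (1.81 ± 0.34, edgeR adjusted p = 0.0854), and rose over the 158 members by 1.56 ± 0.34 (edgeR adjusted p = 0.0495). Gucy1a1, the alpha subunit of the nitric oxide receptor soluble guanylate cyclase, had 463, 713 and 434 CPM with SH045 and 177, 77.0 and 241 CPM with Vehicle (1.68 ± 0.38, edgeR adjusted p = 0.139). Over the 158 members it rose by 1.42 ± 0.29 (edgeR adjusted p = 0.0464), and no library of one group reached the other. Lpp and Nfia showed the same lack of overlap and rose over the 158 members by 1.61 ± 0.35 and 1.65 ± 0.37 (edgeR adjusted p = 0.0495 for both), as did Usp34 by 1.81 ± 0.40.

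The growth factor Igf1 had 90.5, 423 and 184 CPM with SH045 and 78.8, 14.0 and 17.8 CPM with Vehicle, apart by a narrow margin over all members and overlapping over the 158 (2.63 ± 0.78, edgeR adjusted p = 0.283 over all). The Wnt ligand Wnt5a had 166, 230 and 97.8 CPM with SH045 and 68.9, 42.0 and 17.8 CPM with Vehicle (1.86 ± 0.50, edgeR adjusted p = 0.187), and it too overlapped over the 158. Of the PDGF, IGF and FGF genes 7 of 9 were positive with a median of 0.83, of the Wnt genes 9 of 10 with a median of 0.70, and of the chemokines, cytokines and complement genes 6 of 9 with a median of 0.52; none was called. Over the 158 members the medians were 0.53, 0.62 and 0.32 in that order. Over all members with the length trend removed they were 0.32, 0.56 and 0.39. The chemokine Cxcl12 overlapped at 242, 156 and 86.3 CPM with SH045 and 148, 56.0 and 187 CPM with Vehicle (0.31 ± 0.47, edgeR adjusted p = 0.796). The complement gene C3 had 10.9, 44.6 and 5.75 CPM with SH045 and 0, 7.0 and 0 CPM with Vehicle, and Ccl2 14.5, 0 and 2.88 CPM with SH045 and 0, 35.0 and 0 CPM with Vehicle, both too few to test.

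Trpc6, the target of SH045, was barely measurable. SH045 libraries held 1, 8 and 7 of its UMIs, against 2, 0 and 1 in Vehicle libraries, in 6.25% of 128 and 6.52% of 46 members (95% Clopper-Pearson intervals 2.74 to 11.9% and 1.37 to 17.9%), against 1 of 9507 C1q-rich macrophages. Trpc6 transcripts were thus seen in members above the level of free RNA, but a difference between the treatments was not detectable at this depth. An inhibitor of the channel need not alter its transcript, so the level does not check the labels.

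On the lower side, respiratory chain genes stood together. All 47 that were tested had a negative fold change over all members, with a median log2 fold change of -0.65; 3 did not overlap (6.86% over all genes) and none was called. In the 158 members 38 of 45 were negative with a median of -0.27, and 10 did not overlap on the lower side (8.77% over all genes). Ndufa1, a complex I subunit, had 651, 349 and 411 CPM with SH045 and 1054, 1253 and 481 CPM with Vehicle (-1.02 ± 0.38, edgeR adjusted p = 0.308). Without the epithelial members it had 255, 349 and 273 CPM with SH045 and 531, 572 and 481 CPM with Vehicle and did not overlap (-0.83 ± 0.26, edgeR adjusted p = 0.147). The transcripts of the mitochondrial genome went the other way over the 158 members: all 6 tested were positive with a median of 0.45, against -0.05 over all members, and mt-Rnr1, the small ribosomal RNA, rose with 4715, 2711 and 3505 CPM with SH045 and 1352, 1785 and 1640.4 CPM with Vehicle (1.22 ± 0.23, edgeR adjusted p = 0.0405). The complex I gene mt-Nd2 rose likewise, with 3797, 2161 and 2956 CPM with SH045 and 1223, 1676 and 1489 CPM with Vehicle (1.05 ± 0.24, edgeR adjusted p = 0.0495). Transcripts of the mitochondrial genome count towards the mitochondrial limit of the rule, so they are not independent of the choice of members. The median over all members with the length trend removed was -0.47 for the respiratory chain genes.

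Immediate early and stress genes, which tissue dissociation also raises, were 14 negative and 2 positive of 16 tested, with a median of -0.57 over all members and -0.63 over the 158, and 1 of the 16 (6.86% over all genes) did not overlap on the lower side, against 0 of 17 over the 158 (8.77% over all genes). Junb, a subunit of the AP-1 factor, had 185, 163 and 331 CPM with SH045 and 463, 266 and 802 CPM with Vehicle and overlapped (-1.16 ± 0.40, edgeR adjusted p = 0.301). Glycolysis genes were 10 negative of 11 with a median of -0.27, and cell cycle genes 6 negative of 7 with a median of -0.71; none was called. The interferon list gave 7 negative of 10 with a median of -0.30. With the length trend removed the medians were -0.37 for glycolysis, -0.56 for cell cycle and -0.06 for interferon genes. The class I antigen gene H2-D1 of the interferon list did not overlap at 185, 297 and 334 CPM with SH045 and 620, 623 and 392 CPM with Vehicle (-1.05 ± 0.32, edgeR adjusted p = 0.239).

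Linker histone gene H1f0 also lay lower without overlap, at 358, 431 and 290.5 CPM with SH045 and 748, 651 and 1409 CPM with Vehicle (-1.41 ± 0.33, edgeR adjusted p = 0.153). The genes of the unfolded protein response and secretion, the machinery a cell needs to export matrix, stayed near the centre, with 7 positive and 13 negative of 20 and a median of -0.04.

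The same comparison in the adventitial-positive fibroblasts of the same mice showed where the members differed from them. The members' effect of SH045 minus that in the adventitial-positive fibroblasts was tested for 3367 genes outside the 16 genes named in the rule. Of these, 270 had an unadjusted edgeR p under 0.05 (8.02%) and 1 was called (0.0297%). That gene was Nkd2, an intracellular antagonist of Wnt signalling on chromosome 13 at 73818534 to 73847631 (mm10, minus strand). In members it had 86.8, 96.5 and 94.9 CPM with SH045 and 78.8, 28.0 and 71.3 CPM with Vehicle (0.66 ± 0.42, edgeR adjusted p = 0.522). In adventitial-positive fibroblasts it had 83.7, 37.2 and 103 CPM with SH045 and 571, 303 and 457 CPM with Vehicle, so that it fell there (log2 fold change -2.49 ± 0.38, edgeR adjusted p = 0.0278), the 1 call among 3677 genes there (0.0272%). High values were thus found in the adventitial-positive fibroblasts of the Vehicle mice and in no other sum. Vehicle replicate 3 gave only 8 adventitial-positive fibroblasts, under the minimum of 10 members per library set for the gene test. That minimum was not applied to this set.

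The difference between the effects for Nkd2 was 3.14 ± 0.53 on the log2 scale (edgeR adjusted p = 0.0422). Without SH045 replicate 1, SH045 replicate 2, Vehicle replicate 1 or Vehicle replicate 2 the edgeR adjusted p was 0.0636, 0.200, 0.294 or 0.165. Without the 16 epithelial members 4 genes were called: Nkd2 (2.94), Cxcl12 (-2.77), Gucy1a1 (2.17) and Cp (2.09), which encodes ceruloplasmin, with edgeR adjusted p of 0.0323, 0.0359, 0.0385 and 0.0385. Cxcl12 in adventitial-positive fibroblasts had 892, 889 and 255 CPM with SH045 and 114, 31.0 and 159 CPM with Vehicle, beside its overlapping values in members. For Gucy1a1, with a difference of effects of 2.44 ± 0.49 over all members (edgeR adjusted p = 0.0832), adventitial-positive fibroblasts had 154, 268 and 241 CPM with SH045 and 285, 489 and 357 CPM with Vehicle. Csrp2, a LIM-domain protein of the actin cytoskeleton, came next to Nkd2 over all members (-4.17 ± 0.74, edgeR adjusted p = 0.0576). It had 47.0, 59.4 and 25.9 CPM with SH045 and 167, 91.0 and 35.7 CPM with Vehicle in members, and 571, 347 and 117 CPM with SH045 and 57.1, 15.5 and 79.4 CPM with Vehicle in adventitial-positive fibroblasts, where the groups lay apart. The difference of effects for Gas6 was 1.40 ± 0.54 (edgeR adjusted p = 0.535), and adventitial-positive fibroblasts had 187, 325 and 248 CPM with SH045 and 190, 132 and 79.4 CPM with Vehicle. The adventitial-positive sums of Vehicle hold only 8 to 17 cells each.

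**Figure D5:**
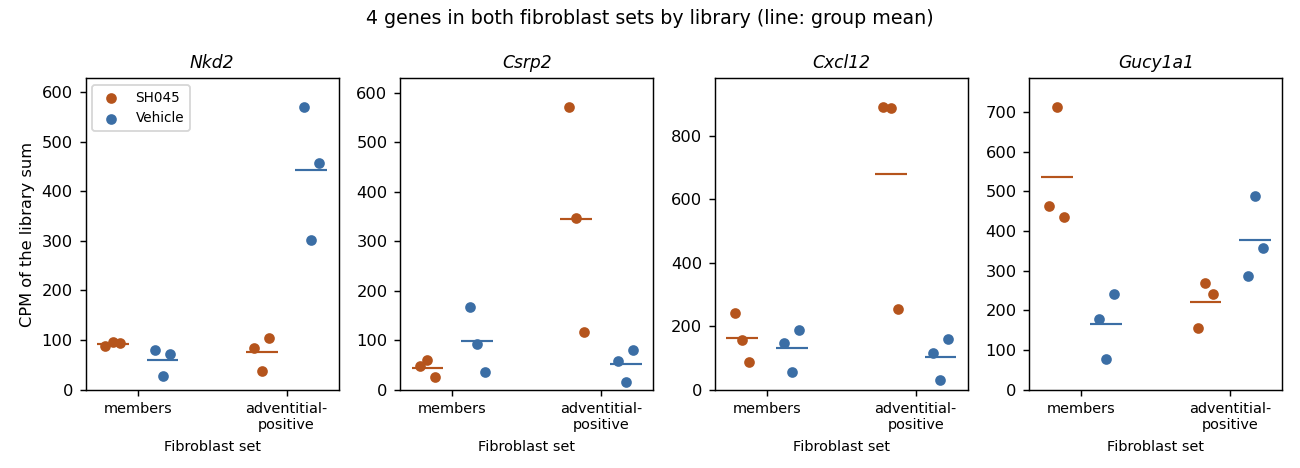
CPM per library (vertical, linear scale) of 4 genes in members and in adventitial-positive fibroblasts, with SH045 left of Vehicle in each set; points are libraries and lines are group means. Nkd2 had 303 to 571 CPM in the adventitial-positive fibroblasts of Vehicle mice and 28.0 to 103 CPM in the other sums.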

How the data were processed

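The data are droplet single-cell libraries made with a Singleron kit that loads a chip for 6000 cells, 1 library per mouse, 3 with SH045 and 3 with Vehicle, per the labels' protocols. The deposited matrices hold raw UMI counts per gene and barcode, not normalized by the authors, and the build is mm10 per the submitters' processing notes; the aligner and counter are not given in the sources used here. Strand use in counting is not given either, so overlapping genes cannot be separated. Depth is the total UMIs per library, and the members of a library sum to 101548 to 347703 UMIs, which limits the test to well-expressed genes. The members, the gene lists and the alternatives were chosen with earlier results of these data known.

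UMIs of the members were summed per library and tested with edgeR 4.0.16 in R 4.3.3 (robust quasi-likelihood, TMM factors, default filterByExpr, Benjamini-Hochberg limit 0.05). The 16 genes of the rule have no call, but those that passed the filter stayed in the fit and in the adjustment of p-values. CPM is each sum divided by its own total. The difference between both fibroblast sets was an interaction term over 12 sums with library as a block. Shares were compared by exact permutation over libraries. Since each library is 1 mouse, p-values measure the spread between mice together with that of handling. Named genes are 30 set genes, all called genes, and the 2 smallest p-values of each list; H1f0, Capg, Lpp, Col4a1, Col4a2 and other genes of small p, and those called without the 16 epithelial members, were chosen after their values were seen. Doublets were kept, and an alternative left out the 5% of barcodes with the highest Scrublet score (scanpy 1.11.5). Other alternatives were DESeq2 1.42.0, no low-count filter, each library left out, other limits of the rule, and a correction for transcript length from GENCODE. Gene positions are from GENCODE on mm10. The tests were checked on simulated data. In the test of members 90.5% of 4-fold but only 17.7% of 2-fold changes were called. For the difference of effects 83.0% of 8-fold and 56.4% of 4-fold changes were called. The simulated counts took each gene's spread from the trend over all genes, and many genes were changed at once. Recovery in the real data, where 1 gene was called, may therefore be lower. Over all members Ogn and Col14a1, with log2 fold changes of 2.67 and 2.40, were not called, while Gas6 with 2.44 was.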

Additional observations from a re-analysis of the deposited data

Results flagged for a closer look

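Nkd2 differed in its response between the fibroblast sets. The effect of SH045 in the members minus that in the adventitial-positive fibroblasts was 3.14 ± 0.53 on the log2 scale (edgeR interaction test, adjusted p = 0.0422), from a log2 fold change of 0.66 ± 0.42 in the members and -2.49 ± 0.38 in the adventitial-positive fibroblasts. It was higher with SH045 in all 3 libraries against all 3 Vehicle libraries in members and lower in all 3 in adventitial-positive fibroblasts. Vehicle replicate 3 holds only 8 adventitial-positive fibroblasts, under the minimum of 10 per library set for the gene test of members. Over the 158 members without epithelial transcripts the values were 118, 96.5 and 109 CPM with SH045 and 129, 54.5 and 71.3 CPM with Vehicle, which overlap.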

How the results depend on the processing

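Genes called in members (1) were 2 with DESeq2, 49 with no low-count filter (39 higher, 10 lower), 0 with a replicate block, 3 with a collagen minimum of 20, 0 with a common UMI minimum, 0 without the highest doublet scores, 2 with the adventitial gate on thinned counts, and, as alternatives chosen after seeing the data, 7 with a collagen share of at least 0.5% and 14 without the epithelial members. Leaving out 1 library gave 0 to 87, with 6 without SH045 replicate 1, 87 without Vehicle replicate 3 and 0 for the other 4. The share of members kept its direction, with no overlap, under all alternatives. For the difference of effects (1 gene), 11 were called with no filter, 3 with a common UMI minimum and 4 without the epithelial members, and leaving out 1 library gave 0 to 10. The difference in the thinned share with Postn (0.617 percentage points) was -7.47 at 1000 UMIs, -3.64 unthinned and -2.66 to 3.59 with 1 library left out; that with Acta2 was -2.44 without the epithelial members.

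Of 1254 values for 63 named genes, 1163 kept direction and call, 63 gained a call, 8 lost it (all Gas6, edgeR adjusted p 0.0627 to 0.341) and 20 changed sign. Without the adventitial gate the log2 fold change was -0.18 for Tagln, -1.33 for Nkd2, 0.38 for Timp1, -0.83 for Spp1, -0.014 for Ctgf and 0.22 for Fap. With that gate on thinned counts it was -0.62 for Nkd2 and -0.13 for Spp1. With the length trend removed it was -0.053 for Tgfbr2 and -0.030 for Cxcl12. It was -0.041 for Spp1 with the collagen share and -0.0059 for Tagln without the epithelial members. With 1 library left out it ranged over -0.15 to 7.52 for Lum, -0.12 to 0.56 for Tagln, -1.16 to 0.28 for Fap, -0.15 to 0.70 for Cxcl12 and -0.28 to 0.90 for mt-Nd2. The cause was not tested. The alternative without markers of other cell types was run for the share alone (ratio 7.31 in place of 3.23); the gene tests were not run on it, as it left under 10 members in SH045 replicate 2 and in each Vehicle library.

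Same-numbered libraries had correlations of 0.307, -0.375 and -0.0798 in their deviations from the group mean, within the -0.496 to 0.470 of the other pairs. With 3 libraries a group such values cannot show whether the numbers pair libraries. In edgeR the replicate block gave 0 called genes, with 270 at an unadjusted p under 0.05.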

Other observations

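In adventitial-positive fibroblasts Postn had 530, 1114 and 134 CPM with SH045 and 19.0, 15.5 and 357 CPM with Vehicle, so that the groups overlapped. It was higher there than in the members of the same library in 4 of 6 libraries, and lower in Vehicle replicates 1 and 2, where the members had 98.5 and 42.0 CPM. C3, the central complement component, had 176, 1345 and 6.88 CPM with SH045 and 76.1, 85.3 and 19.9 CPM with Vehicle in adventitial-positive fibroblasts, with most of its level in SH045 replicate 2, while no sum of members exceeded 44.6 CPM. The rule separates both sets by other adventitial genes, so these values are a description with no test.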
